A study of Drosophila melanogaster with 8 samples.

Results

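CG10154, CG10725 and CG10140 are adjacent chitin-binding genes on arm 3L of Drosophila melanogaster, and all 3 were higher in Dahomey than in Oregon R. They were taken by symbol from a comparison of 14701 gene IDs, each of them stood in 1 entry, and they were selected on their fold changes in that comparison, which are therefore given as a description and not tested. Whole-transcriptome RNA sequencing covered 4 libraries of the Dahomey strain and 4 of the Oregon R strain. Each library held heads and thoraxes of 60 mated females aged 10 days and kept at 25 °C, with abdomens left out. No transgene, mutation or treatment is named for either strain, and flies were pooled, so variation between single flies was not measured. The labels do not state whether a strain's libraries came from separate cultures, so the p-values cover the spread among these libraries, which may be technical.

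Chitin is the sugar polymer of the insect cuticle, of the lining of the foregut and hindgut, and of the peritrophic matrix, a sheath that separates food from the midgut wall. Proteins with chitin-binding domains of the peritrophin type, which are small cysteine-rich folds, attach to these fibres and help to shape the layer. Members of the 3-gene group carry domains of this type and have no name beyond their annotation numbers. The cuticle, tracheae and foregut lie partly in head and thorax, while most of the midgut lies in the abdomen.

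The data were the authors' finished DESeq2 comparison, in which an entry holds the mean normalized read count over the libraries of both strains, the log2 fold change between strains, its standard error (SE) and a p-value before and after adjustment. Single libraries were not analysed here; every error below comes from the SE column, and how deeply each library was sequenced is unknown. The mean normalized counts summed to 113684275 over the table. The table's name puts Dahomey before Oregon R, and on that ground alone a positive sign was taken to mean higher in Dahomey; were the sign the other way round, every direction given here would turn. Of 13065 genes with a p-value, counting genes with identical values once, 29.5% passed at an adjusted p under 0.05 by the authors' DESeq2 test, 14.8% higher in Dahomey and 14.7% lower. The labelled tissue was checked by the means in the authors' deposited table of ninaE, the main opsin gene of the eye, at 1452797, of nSyb, a synaptic gene of neurons, at 27423, and of Act88F, the actin gene of flight muscle, at 14362. The neuronal gene elav had a mean of 1765 in the authors' deposited table, which per kilobase of exon is at percentile 31.2 of all genes. The log2 fold change was 1.25 ± 0.16 for Act88F, without a p-value, against -0.18 ± 0.11 for ninaE, 0.01 ± 0.073 for nSyb and 0.06 ± 0.12 for elav, which did not pass, in the authors' deposited table.

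The gene models of the group are alike. In the BDGP6 annotation, each gene has 4 exons and 3 introns, and 4791 bases hold all 3 genes with no other annotated feature among them. CG10725 is on the plus strand, with CG10154 on the minus strand 817 bases to one side and CG10140 on the minus strand 307 bases to the other. The coding sequence has 316 codons in CG10154, 269 in CG10725 and 297 in CG10140. The last coding exon has 222 bases before the stop codon in each of them, a length that 31 of 11103 genes with several coding exons have in at least 1 transcript, or 0.279%. None of the 73 other genes of a list of chitin-binding genes with several coding exons has it. The exon before it has 437 bases in CG10725 and in CG10140, and 485 in CG10154. CG10725 and CG10140 were the only 2 annotated genes that end in coding exons of 437 and 222 bases. No annotated gene overlaps another here, so reads of the 3 genes need not be shared through overlap. None of the 3 had values identical to those of another gene ID. Whether reads of 1 member were counted for another was not tested, as no sequences or reads were used.

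**Figure D1:**
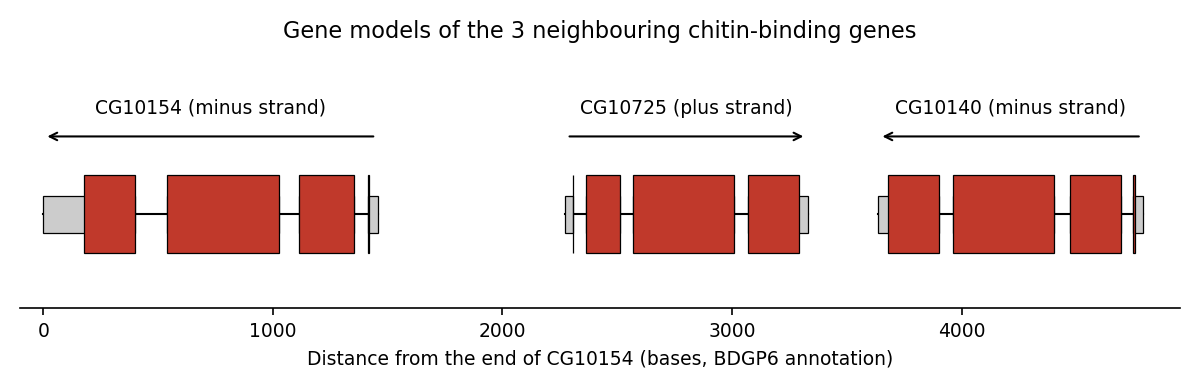
Gene models of CG10154, CG10725 and CG10140 to scale in the BDGP6 annotation; the x axis gives bases from the outer end of CG10154, tall red boxes are coding, low grey boxes untranslated, lines introns, and arrows the direction of transcription. The longer transcript of CG10154 is drawn. Each gene has a very short coding stretch in its first exon followed by 3 longer coding exons, and the last of these has 222 bases in all 3.

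CG10154 had the highest log2 fold change of all 14100 gene IDs with one. In the authors' deposited table it was 8.32 ± 0.28 (SE), a 320-fold difference with a 95% interval of 218-fold to 470-fold from the SE. The mean of CG10154 over all libraries was 1304 normalized counts in the authors' deposited table. A mean over equal numbers of libraries and a fold change together imply a mean for each strain, which came to 2599 normalized counts in Dahomey and 8.11 in Oregon R. With the fold change at either end of its interval, the implied Oregon R mean of CG10154 lay between 5.53 and 11.9. The SE in the authors' deposited table is small even for genes with almost no reads, such as Send1 with an SE of 0.11 at a mean of 0.198, as it is when fold changes are shrunken toward 0. The fold changes of CG10154 and CG10140 may therefore be understated, and their implied Oregon R means, with the ranges given, too high. The Oregon R libraries held few reads of CG10154, and whether any of them held none cannot be read from the table. In RNA from whole heads and thoraxes, fewer cells that express a gene and less RNA per cell cannot be told apart.

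CG10725 was by far the most abundant of the 3 genes. The authors' deposited table gave it a mean of 58213 normalized counts and a log2 fold change of 5.29 ± 0.14 (SE), which is 39.1-fold with a 95% interval of 32.3-fold to 47.3-fold. The implied means were 113522 normalized counts in Dahomey and 2904 in Oregon R, with 2412 to 3493 for Oregon R over the interval of the fold change. By fold change CG10725 stood in place 3 of the 14100 gene IDs. Per kilobase of exon, its mean over all libraries stood in place 182 of 13864 genes with a known exon length.

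CG10140 was the least abundant of the 3 genes by its mean and had the smallest fold change of the group. In the authors' deposited table it had a mean of 423 normalized counts and a log2 fold change of 4.84 ± 0.23 (SE). That is a 28.7-fold difference with a 95% interval of 21.1-fold to 39.0-fold, and it stood in place 5 of the 14100 gene IDs. The implied means of CG10140 were 818 normalized counts in Dahomey and 28.5 in Oregon R, with 21.2 to 38.3 for Oregon R over the interval.

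**Figure D2:**
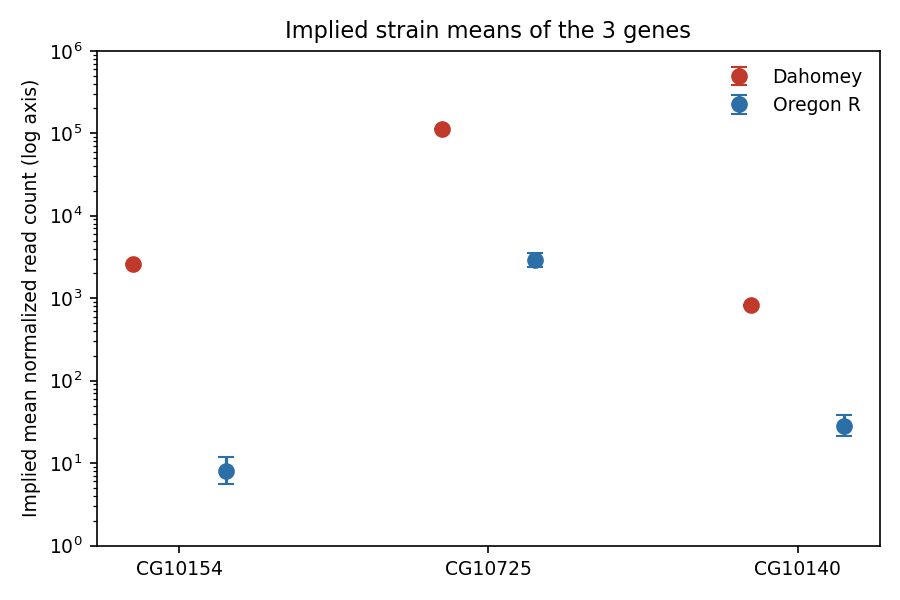
Implied mean normalized read count of each gene in Dahomey (red) and Oregon R (blue) on a log axis; points come from the authors' mean and fold change, and bars show the values with the fold change at the ends of its 95% interval, which is not the spread between libraries. In all 3 genes the Dahomey point lies above the Oregon R point, from 113522 against 2904 in CG10725 to 2599 against 8.11 in CG10154.

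The 3 fold changes were not equal. The log2 fold change of CG10154 exceeded that of CG10725 by 3.03 and that of CG10140 by 3.48, while CG10725 and CG10140 were 0.45 apart and their 95% intervals overlapped. The order of the implied levels per kilobase of exon therefore differed between the strains. In Dahomey, CG10725 came first with 129591 normalized counts per kilobase, then CG10154 with 2231 and CG10140 with 844. In Oregon R, CG10725 again came first with 3315, but CG10140 with 29.4 stood above CG10154 with 6.96. CG10725 made up 97.7% of the group's summed implied level per kilobase in Dahomey and 98.9% in Oregon R.

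The SE of each member was larger than the median SE of genes with a like mean over both strains. Among genes with a mean within 1.2 times that of the member in the authors' deposited table, the median SE was 0.100 for CG10154, 0.0741 for CG10725 and 0.153 for CG10140. The members' own SE were 2.83, 1.89 and 1.47 times these medians, in the same order of genes. The match was on the mean over both strains, while the implied Oregon R means were only 8.11 for CG10154 and 28.5 for CG10140. That of CG10725 was 2904. Genes were not matched on their level in the lower strain, so whether the members varied more between libraries was not tested.

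The genes closest to the group in fold change lay elsewhere in the genome. The fold change of CG3397 on arm 3R, at 6.49 ± 0.24 in the authors' deposited table, was the nearest to CG10154 and stood in place 2. CG33658, also on arm 3R, at 4.93 ± 0.33 in the authors' deposited table, was the nearest to CG10725 and stood in place 4. The maltase gene Mal-A4 on arm 2R, at 4.81 ± 0.29 in the authors' deposited table, was the nearest to CG10140 and had no p-value. CG15263, at 4.76 in the authors' deposited table, was also among the 3 nearest to CG10725 and to CG10140. CG15711, at 4.75 there and without a p-value, was among the 3 nearest to CG10140. Members of the group were not counted here, and a mean of at least 10 was required. This likeness is in 1 fold change only, over the 4 Dahomey and 4 Oregon R libraries together.

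The genes directly beside the group had small fold changes or none that passed. CG14109, the next gene beyond CG10140, had a log2 fold change of 0.35 ± 0.085 (adjusted p = 0.000218, DESeq2) in the authors' deposited table. On the side of CG10154, 2 transfer RNA genes with means under 1 count come next, and then CG10713, which had 0.11 ± 0.12 in the authors' deposited table and did not pass. Of the 20 genes made up of 10 on each side, 7 passed at an adjusted p under 0.05, or 35.0% against the 29.5% of all genes. Of these 7, 4 were higher in Dahomey and 3 were lower, and the median log2 fold change of the 20 genes was 0.07, against -0.01 for all genes with a p-value. The call of CG10089, at 0.25 ± 0.092 (adjusted p = 0.0271, DESeq2) in the authors' deposited table, was the only 1 of the 7 lost at an adjusted p under 0.01.

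The exception among these 20 neighbours was CG33263, which is on the list of chitin-binding genes. It lies 6 genes from CG10154, on the same strand, and had a log2 fold change of 3.49 ± 0.35 (adjusted p = 3.23e-22, DESeq2) in the authors' deposited table. Its mean was 39.2 normalized counts in the authors' deposited table, with implied means of 72.0 in Dahomey and 6.41 in Oregon R. Of the 5 genes between CG33263 and CG10154, CG14105 was the only one that passed, and it fell by 0.88 ± 0.12 on the log2 scale (adjusted p = 3.72e-11, DESeq2) in the authors' deposited table. The other 4 had small positive values, from 0.06 to 0.35 in the authors' deposited table, and did not pass. Farther out, CG10116 fell by 0.96 ± 0.14 and CG32121 by 0.33 ± 0.10, and flr, which encodes a factor that helps to take actin filaments apart, rose by 0.23 ± 0.060, in the authors' deposited table.

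**Figure D3:**
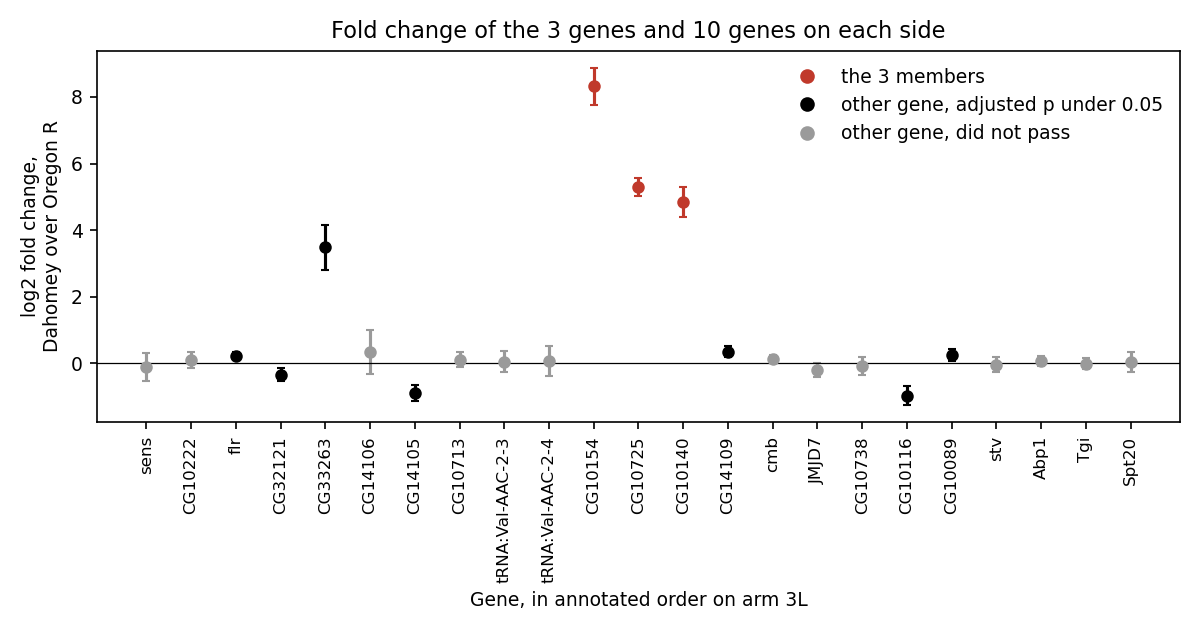
Log2 fold change, Dahomey over Oregon R, of the 3 genes (red) and of 10 genes on each side in annotated order on arm 3L; bars are 95% intervals from the authors' SE, black points passed an adjusted p under 0.05 and grey points did not. The 3 genes stand at 8.32, 5.29 and 4.84, CG33263 at 3.49, and the 19 other neighbours between -0.96 and 0.35.

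Runs of adjacent genes with differences of this size were few in the table. Among genes with a mean of at least 10, 8 runs of 3 or more consecutive genes had log2 fold changes of at least 1 toward Dahomey, and the longest held 4 genes; 13 runs went toward Oregon R, and the longest of those held 5. With at least 2 on the log2 scale, the 3 chitin-binding genes were the only such run toward Dahomey, whereas 3 runs went toward Oregon R. Among those 3 was the run of digestive lysozyme genes from LysB to LysE, also on arm 3L. Its log2 fold changes lay between -8.97 and -5.02 in the authors' deposited table. LysB and LysE, which set the ends of that range, had no p-value, and the runs did not require one. The group was chosen as neighbours with high fold changes, so these counts describe the table and test nothing.

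Other chitin-binding genes differed in both directions. Of 81 other genes on the list, 71 carried a p-value, and of those 20 rose in Dahomey, 10 fell and 41 did not pass. The passing share was 42.3%, against 29.5% of all genes. The median log2 fold change of the 71 genes was 0.03, against -0.01 for all genes. At least 2-fold differences were found in 8 genes toward Dahomey and 5 toward Oregon R, together 18.3% of the 71; over all genes 2.6% differed this much toward Dahomey and 2.62% toward Oregon R, 5.22% in all.

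The 4 highest fold changes among these other genes that passed belonged to CG14957, CG33263, CG42397 and Peritrophin-A, and the first 3 lie on arm 3L. CG14957 had a log2 fold change of 3.69 ± 0.39 from a mean of 47.0 normalized counts, in the authors' deposited table. The more abundant CG42397, with a mean of 3755, had 2.04 ± 0.17 (adjusted p = 1.05e-32, DESeq2) in the authors' deposited table, which implies 6045 normalized counts in Dahomey and 1466 in Oregon R. Peritrophin-A on arm X, which encodes a protein of this domain type, had 1.71 ± 0.14 in the authors' deposited table. The 4 lowest were CG6933 at -1.79 ± 0.32, CG5897 at -1.59 ± 0.12, the chitinase gene Cht7 at -1.32 ± 0.14 and the chitin deacetylase gene Cda4 at -1.31 ± 0.21 in the authors' deposited table. CG32302 had a lower value still, -4.07 ± 0.40, without a p-value in the authors' deposited table, and was named after its value was seen.

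**Figure D4:**
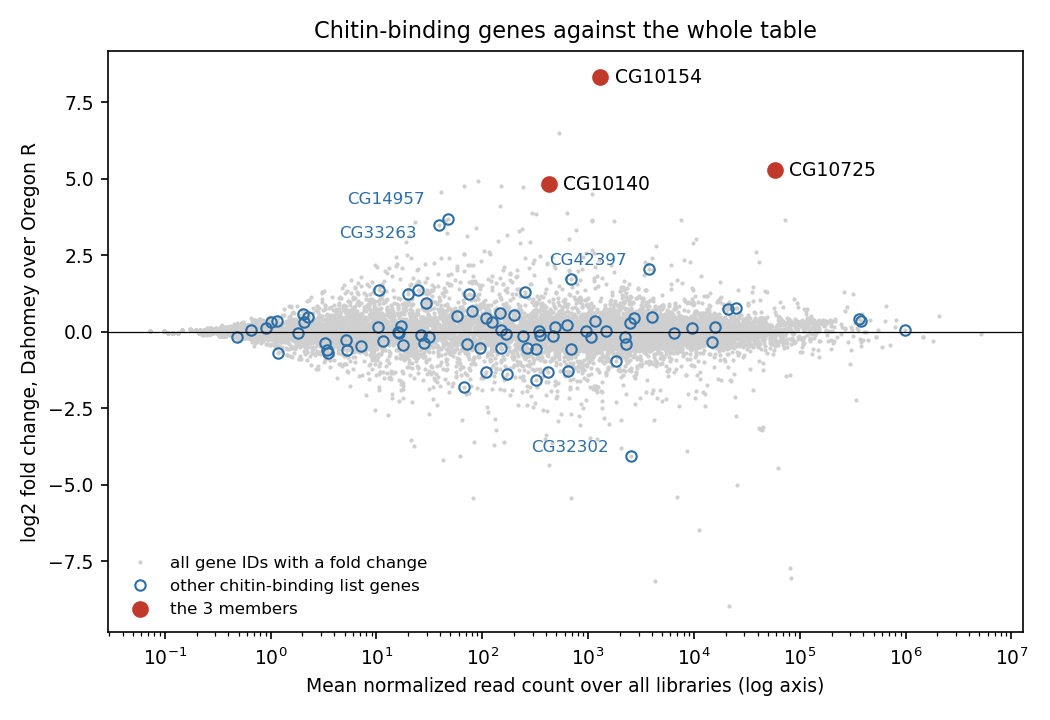
Log2 fold change, Dahomey over Oregon R, against the mean normalized read count over all libraries on a log axis, for all 14100 gene IDs with a fold change (grey), the 81 other chitin-binding list genes (open blue) and the 3 members (red). CG10154 at 8.32 is the highest point, and CG10725 lies far to the right of other points of its height.

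The share of chitin-binding genes that passed was much the same on arm 3L and elsewhere, a difference that was not tested. Of the 41 other list genes on arm 3L, 37 carried a p-value, of which 11 rose in Dahomey and 5 fell, a passing share of 43.2%. Of the 40 on other arms, 34 had a p-value, and 9 were higher and 5 lower, or 41.2%. Over all genes of arm 3L the share was 29.6%.

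The place of the 3 genes among the chitin-binding genes differed between the strains, which follows from the fold changes they were selected on. By implied level per kilobase of exon over 84 genes, members included, CG10725 stood in place 3 in Dahomey and 8 in Oregon R. CG10154 stood in place 13 in Dahomey and 67 in Oregon R, and CG10140 in place 16 in Dahomey and 50 in Oregon R. The most abundant genes of the list held their places: CG14645 was first and CG34220 second in each strain, with log2 fold changes of 0.41 ± 0.059 and 0.05 ± 0.089 in the authors' deposited table.

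**Figure D5:**
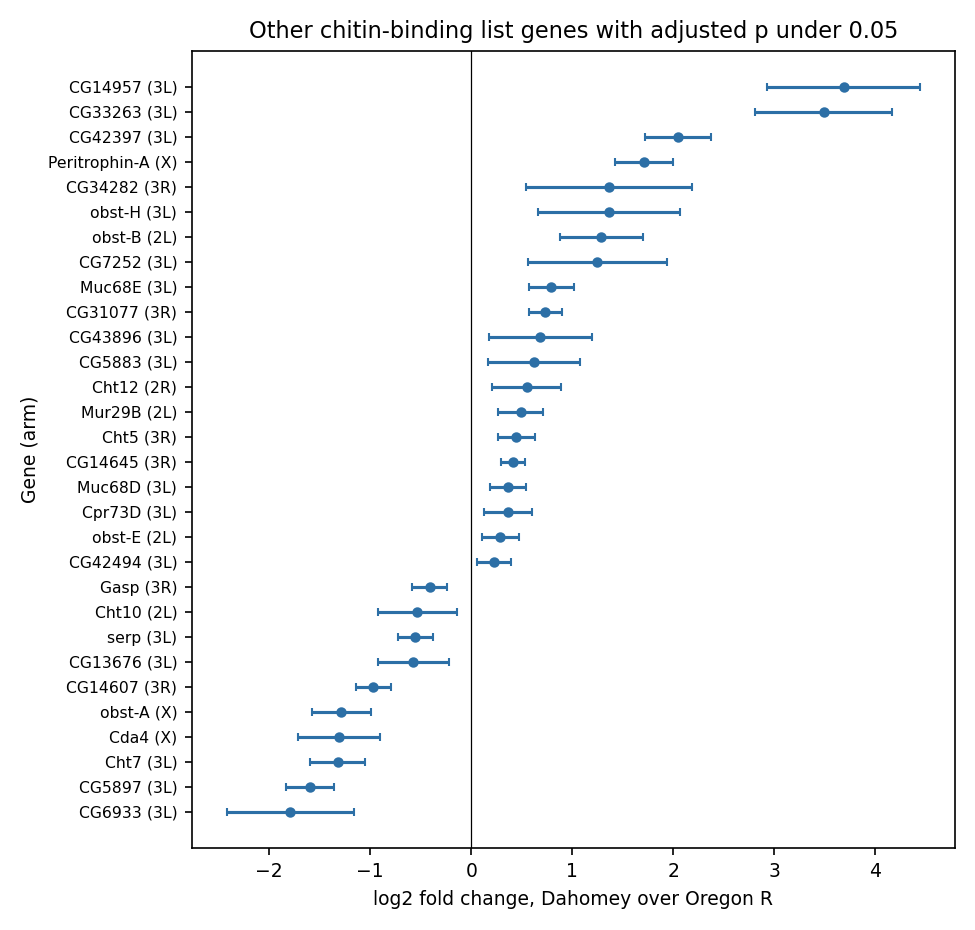
Log2 fold change, Dahomey over Oregon R, of the 30 other chitin-binding list genes with an adjusted p under 0.05, each with its arm in brackets and a 95% interval from the authors' SE. There are 20 points to the right of 0 and 10 to the left, from CG14957 at 3.69 to CG6933 at -1.79.

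Genes that make and break down chitin also went both ways, by smaller amounts. All 35 matched genes carried a p-value, of which 11 rose in Dahomey, 9 fell and 15 did not pass. The passing share was 57.1% against 29.5% of all genes, and the median log2 fold change was 0.11. Means in this list began at 78.9, with a median of 3175, while means over all genes began at 0.0725. The shares of this and the other lists were not matched on the mean. Whether they differ from those of genes with like means was not tested. The chitin synthase genes did not pass: Chs2, the synthase of the gut, had 0.29 ± 0.12 (adjusted p = 0.0568, DESeq2) and kkv, the synthase of the cuticle, had 0.47 ± 0.23 (adjusted p = 0.125, DESeq2) in the authors' deposited table. The highest were the chitinase genes Cht4 at 0.94 ± 0.099, Cht8 at 0.64 ± 0.057, Cht12 at 0.55 ± 0.18 and Cht6 at 0.49 ± 0.14 in the authors' deposited table. The lowest were the chitin deacetylase gene Cda9 at -1.57 ± 0.11, then Cht7 and Cda4, and the deacetylase gene serp at -0.55 ± 0.086 in the authors' deposited table. The list shares 8 genes with the chitin-binding list.

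Markers of midgut and of abdominal organs were present in the table, and midgut genes differed between the strains. Of 51 genes of midgut digestion, only 23 carried a p-value, of which 7 rose in Dahomey and 9 fell. The passing share was 69.6%, against 29.5% of all genes, and the list's means ran from 3.95 to 339437 normalized counts. Their summed implied level was 2051360 normalized counts in Dahomey and 3023969 in Oregon R. The genes did not share 1 direction, as 26 had a log2 fold change above 0 and 25 below. Amy-d had 119926 in Dahomey and 558949 in Oregon R, and LysC 616 and 163873. The other way went betaTry, with 355676 in Dahomey and 202468 in Oregon R. Jon65Aiv, which had no p-value, also had a higher implied mean in Dahomey, with 332167 and 207813. The passing genes ranged from epsilonTry, a trypsin gene, at 1.37 ± 0.12 to LysC, a digestive lysozyme gene, at -8.06 ± 0.13 in the authors' deposited table; betaTry had 0.81 ± 0.066 there and GATAe, a transcription factor gene of the midgut, 0.44 ± 0.097. The 28 midgut genes without a p-value included 4 with a log2 fold change of at least 1 toward Dahomey and 6 toward Oregon R. Of 17 ovary and abdomen genes, which code for eggshell proteins, germline factors and the like, none was at 0, and their means ran from 0.198 to 11153. Their summed implied level was 27308 in Dahomey and 37512 in Oregon R. Only 3 of the 17 had a p-value, and 0 of these passed by the authors' DESeq2 test after adjustment, and 0 had a p under 0.05 before it. They were Send1, Send2 and Vm26Ac, with means of 0.198, 1.15 and 2.98. With so few reads, they cannot show whether the list differed between the strains. Of the 14 genes without a p-value, 13 had means over 100. Among those without a p-value, 3 eggshell genes had the lowest log2 fold changes in the authors' deposited table, Cp18 at -2.28 ± 0.42, Cp16 at -1.24 ± 0.41 and Cp19 at -1.0 ± 0.39; they were named after their values were seen. For the 3 genes of highest mean in the list, the authors' deposited table gave values within 1 SE of 0: the oocyte gene osk stood at -0.36 ± 0.37, the eggshell gene Cp38 at -0.35 ± 0.38 and the eggshell gene Cp15 at -0.18 ± 0.40. Missing p-values did not go with few reads in these lists. All 28 midgut genes without one had means over 100, while Send1 had one at a mean of 0.198. Why these genes, Act88F and CG32302 lacked a p-value was not tested. Whether single libraries set their fold changes, their SE and their share of the summed levels was not tested either. The part of midgut or abdominal tissue in the difference of CG10154, CG10725 and CG10140 was not tested.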

How the data were processed

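RNA of heads and thoraxes was compared between 4 Dahomey and 4 Oregon R libraries. The submitters' processing notes name build BDGP5 and the programs TopHat2 2.0.7, DESeq2, FastQC and bcl2fastq. How reads were counted, with what use of strand and shared reads, and any prior on fold changes were not given in the sources used here. Per the file headers, the deposited columns hold for each entry its mean, the log2 fold change with standard error, and the p-value before and after adjustment. The deposited mean was taken as a signal in normalized read counts, going by the column's name and values. The standard error deposited by the authors is a score with no fixed range; its highest value was 0.423, and it was 0.11 for Send1 at a mean of 0.198. Errors this small at such means occur when fold changes are shrunken toward 0. Differences of genes with few reads may then be understated, and the implied Oregon R means of CG10154 and CG10140 may be too high.

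The table had 14944 rows for 14701 gene IDs, and 14367 IDs matched a symbol. The row of highest mean was kept per ID. Genes passed at the authors' adjusted p under 0.05; 916 rows with a fold change had no p-value and were not counted. Implied strain means solve a mean of 2 equal groups whose ratio is the fold change. Gene order, exons and lengths came from BDGP6, looked up by gene ID, so no coordinates are given. No sequences were used. Gene lists were written by symbol from general knowledge, and their members' domains were not checked by sequence. The chitin-binding list matched 84 genes. They include Cpr73D, from general knowledge a cuticle protein gene of another domain type, and whether others lack the domain was not checked. The members and lists were chosen with earlier results of these data known. Named genes were the members, passing neighbours, the 3 nearest in fold change, and up to 4 higher and 4 lower passing genes of a list, a rule from which the text gives a part for midgut genes; tissue markers were chosen later. Python 3.11.15 with pandas 2.3.3, numpy 2.4.6 and scipy 1.17.1 was used, and the steps were tested on simulated data.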

Additional observations from a re-analysis of the deposited data

How the results depend on the processing

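The fold changes of the 3 genes did not depend on which entry was kept, since each had 1, and with a minimum mean of 100 CG10140 moved to place 4. Among 5 genes on each side of the group, 1 was higher in Dahomey and 2 were lower, or 30.0% against the 29.5% of all genes. With 20 on each side, 12 of the 40 were higher and 3 lower. That passing share was 37.5%, against 29.5% of all genes, of which 14.8% were higher in Dahomey. The higher genes beyond the 10 on each side included ImpL1 at 2.42 ± 0.31, CG14107 at 2.15 ± 0.40 and CG8745 at 1.29 ± 0.14. Requiring at least 2-fold left 8 higher and 5 lower chitin-binding genes, and leaving out arm 3L, chosen after seeing the data, left 9 and 5. At an adjusted p under 0.01, 4 midgut genes were higher. Of the 37 recomputed values, 30 stayed within 1.5 times the main count or within 1 SE. Some of these 30 could not change. They include the fold changes of the 3 genes, with 1 entry each. They also include the counts of chitin synthesis and breakdown genes at a minimum mean of 10, as the lowest mean there was 78.9. No paired analysis was possible because the table holds 1 value per comparison, and for the same reason leaving out each library was not run. Protein searches and identities were not run, as no protein sequences were at hand. Depth per library is unknown, and the Oregon R levels of CG10154 and CG10140 rest on few reads.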
